A study of Mus musculus with 30 samples.

Results

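*Cd209a* and 7 other genes for C-type lectins of myeloid cells (*Clec4e*, *Clec4d*, *Clec4n*, *Clec7a*, *Clec4a2*, *Clec10a* and *Mgl2*) were followed in the BM and in F4/80+ cells sorted from visceral fat (adipose tissue macrophages, ATMs) of transplanted mice. The members were picked by symbol. They were proposed after *Cd209a* had been seen to be low in Vehicle against WT and higher in Combo against Vehicle in the BM. For the members, these 2 comparisons are therefore given below as descriptions, without a test. All 8 genes were in the table of 13353 BM genes and in the table of 17059 ATM genes, of which 13076 were in both. All 8 passed the low-count filter, which removed no gene of either table.

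Each tissue had 5 groups of 3 libraries. According to the labels, recipients were irradiated with 700 and then 400 cGy, and equal numbers of BM cells of Shp2E76K/+;LysM-Cre+ mice (CD45.2+) and of Boy/J mice (CD45.1+) were given to both Ob/Ob and WT recipients. The donor is not given for each library, and the study's text also names WT donor cells for the ATM reference. A caption of the study can be read as placing these WT donor cells in Ob/Ob recipients. Whether WT ATMs differed from Vehicle and Combo ATMs in the recipient, in the donor or in both cannot be told apart. The labels give C57BL/6J as the genotype of all libraries, an age of about 12 to 14 weeks and animals of both sexes. Whether this is the age at transplantation or at sampling is not known here. WT libraries served as the reference. For them no vehicle, days of treatment or start of treatment is recorded, so comparisons with WT may differ in these as well. From 8 weeks after transplantation the Ob/Ob recipients, which lack leptin, received for 30 days either vehicle only (Vehicle), beinaglutide, a GLP-1R agonist, at 3 mg/kg, an anti-IL-17A antibody at 200 µg per mouse 3 times a week, or both agents (Combo). Shp2E76K is an activated form of the phosphatase encoded by *Ptpn11*, switched on by a Cre that is active in myeloid cells. The RNA of a library can come from mutant, competitor and remaining host cells together.

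C-type lectin receptors are membrane proteins with a carbohydrate-recognition domain, and on myeloid cells they bind sugars and lipids of microbes and of dying cells. *Clec4e* (Mincle), *Clec4d* (MCL) and *Clec4n* (Dectin-2) encode receptors that signal through the adaptor FcRγ, and *Clec7a* (Dectin-1) encodes a β-glucan receptor with a signaling motif of its own. Both routes run through the kinase Syk and Card9 to NF-κB. *Clec4a2* (DCIR) encodes an inhibitory receptor, *Clec10a* (MGL1) and *Mgl2* (CD301b) encode galactose-type endocytic lectins found on dendritic cells and alternatively activated macrophages, and *Cd209a* (a mouse relative of DC-SIGN) is used as a marker of monocyte-derived dendritic cells.

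*Cd209a* lies on chromosome 8 (chr8:3743397-3748984, minus strand, GRCm38). *Clec4a2* (chr6:123106428-123143999), *Clec4n* (chr6:123229843-123247021), *Clec4d* (chr6:123262111-123275265) and *Clec4e* (chr6:123281789-123289870) are neighbours on chromosome 6, where *Clec7a* (chr6:129461591-129472779) also lies, and *Mgl2* (chr11:70130329-70137550) and *Clec10a* (chr11:70156197-70170834) are neighbours on chromosome 11. No exon of the 8 genes overlapped another gene. Of the 50-base stretches of their transcripts, 13.1% of *Mgl2* also occurred in other genes, most often in *Clec10a*, and 9.02% of *Clec10a* did so, most often in *Mgl2*, so part of the reads of this pair cannot be assigned with certainty. The share was 6.83% for *Clec4a2*, most of it with *Clec4a4*, 0.686% for *Clec4n* and 0 for the other 4 genes.

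Promoters of *Cd209a*, *Mgl2* and *Clec4e* are shown because, as described below, the first 2 genes were low in Vehicle and the last one high, in both tissues. Each is the RefSeq sequence (GRCm38.p6) from 250 bases before to 50 bases after the start site, 5′ to 3′ on the strand of the gene, for *Cd209a* at chr8:3748935-3749234 (minus strand), for *Mgl2* at chr11:70130107-70130406 (plus strand) and for *Clec4e* at chr6:123289822-123290121 (minus strand). Capitals mark matches to any of 5 short motifs, searched on both strands.
Cd209a: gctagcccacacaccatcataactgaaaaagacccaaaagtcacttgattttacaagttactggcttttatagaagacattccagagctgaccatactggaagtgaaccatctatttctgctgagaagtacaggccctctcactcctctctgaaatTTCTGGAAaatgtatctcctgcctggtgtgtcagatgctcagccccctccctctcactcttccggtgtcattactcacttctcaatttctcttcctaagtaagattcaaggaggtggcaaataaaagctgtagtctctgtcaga
Mgl2: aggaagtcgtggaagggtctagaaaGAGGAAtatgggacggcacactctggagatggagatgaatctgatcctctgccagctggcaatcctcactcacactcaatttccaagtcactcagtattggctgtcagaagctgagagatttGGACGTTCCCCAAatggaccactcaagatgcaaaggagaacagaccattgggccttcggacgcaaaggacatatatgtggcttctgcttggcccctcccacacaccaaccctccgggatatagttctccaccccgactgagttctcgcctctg
Clec4e: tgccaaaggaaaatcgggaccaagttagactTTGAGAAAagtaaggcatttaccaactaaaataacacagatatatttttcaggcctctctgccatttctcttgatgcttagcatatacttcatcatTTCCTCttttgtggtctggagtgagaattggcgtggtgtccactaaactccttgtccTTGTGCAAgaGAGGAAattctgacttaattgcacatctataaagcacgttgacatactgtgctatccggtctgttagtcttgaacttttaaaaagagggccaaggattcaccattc
The RefSeq table held 7 promoters of 6 of the 8 genes, with 2 for *Clec7a*, and none for *Clec10a* and *Clec4n*. A PU.1-like motif (GAGGAA) was in 5 of the 7 and in 28.3% of 32851 promoters of the same length, and a C/EBP-like motif (TTNCNNAA) was in 5 of the 7 and in 40.7% of all. An AP-1 motif (TGANTCA, 7.81% of all), an NF-kB-like motif (GGNNNTTCC, 18.5% of all) and an ISRE-like motif (GAAANNGAA, 8.56% of all) were each in 1 of the 7, the promoters of *Clec4a2*, *Mgl2* and *Clec4d*. In the *Mgl2* promoter the NF-kB-like match overlaps the C/EBP-like match. The *Cd209a* window held 1 C/EBP-like match and no other. The 2 *Clec7a* windows start 6 bases apart and share 1 PU.1-like match, so that by gene the PU.1-like motif was in 4 of 6 and the C/EBP-like motif in 5 of 6.

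Some libraries and groups stood apart. Libraries held 31086184 to 39925495 counts on genes in the BM and 24876074 to 45300263 in ATMs. In the BM, WT replicate 1 differed more from the other WT replicates (chi-square per degree of freedom 34.8 and 26.6) than these did from each other (2.93), and leaving it out changed no count of called members. The female-specific transcript *Xist* was at 182 to 193 CPM (counts scaled to the library size) in BM of Vehicle and 101 to 105 in Combo, against at most 3.26 in the other groups, and in ATMs at 30.1 to 46.2 in Vehicle and 31.4 to 38.1 in Combo, against at most 1.22 elsewhere. Sex-linked expression thus separated Vehicle and Combo from the other 3 groups in both tissues, and in comparisons between these sets sex cannot be told apart from treatment. The Y-linked *Ddx3y* was at 7.44 to 16.2 CPM in Vehicle ATMs and 6.09 to 11.7 in Combo ATMs, which overlapped, against 80.5 to 173 elsewhere, whereas BM of Vehicle (19.9 to 21.3) and Combo (4.22 to 5.09) differed. In ATMs, 1285 genes (7.53%) had no count in any Vehicle library and 1006 (5.9%) none in any Combo library, against 0.873% to 1.09% in the other groups.

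The sorted cells also differed between groups in markers of cell types, which is shown in the plot of marker levels. *Adgre1*, which encodes the F4/80 antigen used for the sort, was at 208 ± 19.2 CPM (SD, n = 3) in WT, 42.3 ± 11.2 in Vehicle, 390 ± 14.0 under the GLP-1R agonist, 875 ± 16.7 under anti-IL-17A and 400.3 ± 4.92 in Combo. Resident macrophage markers (12 of 12, *Adgre1* included) differed less, with sums of 2191 to 2285 CPM in WT and 1691 to 1792 in Vehicle. Of these 12, 3 were higher in Vehicle than in WT. In the treated groups they summed to 3383 to 6629 CPM. Mature neutrophil markers (9 of 10 in the table) summed to 21890 to 23176 CPM in the Vehicle libraries and 12875 to 13173 in Combo, but to 247 to 477 in the other groups. Dendritic cell markers, MHC class II genes included (12 of 12), summed to 11917 to 12566 CPM in WT and 2616 to 2777 in Vehicle, and to 6128 to 11717 in the treated groups. Stromal and endothelial markers (7 of 7) were at 5272 to 16260 CPM, and interferon-stimulated genes (10 of 10) at 24495 to 25152 CPM in Vehicle against 475 to 943 elsewhere. Epididymis markers (6 of 8) summed to 2993 to 3143 CPM in WT ATMs and to at most 177 in the others, and pancreatic acinar markers (7 of 8) to 1031 to 1072 CPM in Combo and at most 5.99 elsewhere. The part of these cells in the values of the lectin genes was not tested.

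**Figure D1:**
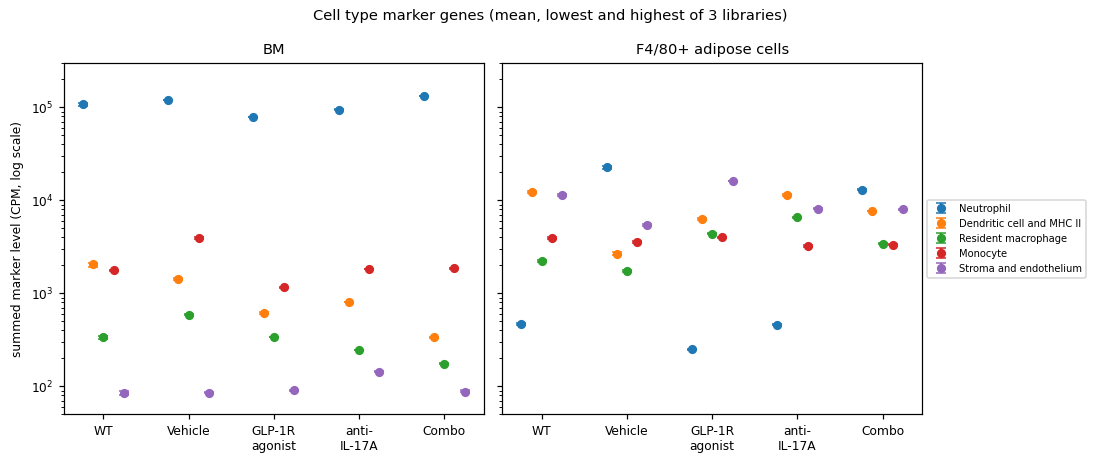
Summed level of cell type markers (CPM, log axis) by group in BM and in F4/80+ adipose cells, as the mean with the lowest and highest of 3 libraries. Neutrophil markers in adipose cells reached 22629 CPM in Vehicle and 13003 in Combo against 251 to 470 in the other groups, and dendritic cell markers were lowest in Vehicle (2677 CPM).

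In the BM, *Cd209a* was the member with the widest range. WT libraries held 331, 260 and 227 counts (8.23, 7.41 and 7.02 CPM), whereas Vehicle libraries held 0, 2 and 0. Treated libraries lay between, with 20, 16 and 9 counts under the GLP-1R agonist, 69, 78 and 74 under anti-IL-17A and 23, 13 and 28 in Combo. No treated library overlapped WT or Vehicle. The pooled level in WT was 350 times that in Vehicle (95% counting interval 96.6 to 2896), and relative to Vehicle the ratio was 18.7 (4.88 to 159) for the GLP-1R agonist, 91.4 (25.0 to 759) for anti-IL-17A and 29.5 (7.83 to 248) for Combo. These intervals cover counting error only, and they are wide because Vehicle had 2 counts in all. Treated BM reached 5.32% (GLP-1R agonist), 26.3% (anti-IL-17A) and 8.45% (Combo) of the mean WT level. In bulk RNA, fewer *Cd209a*-expressing cells and less *Cd209a* RNA per cell cannot be told apart.

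Among the receptors that signal through FcRγ, *Clec4e* went the other way. It was at 117, 90.7 and 91.9 CPM in WT BM and at 249.7, 234 and 229 in Vehicle, all above WT. Treated libraries were at 65.5 to 68.2 CPM (GLP-1R agonist), 92.1 to 95.9 (anti-IL-17A) and 109 to 123 (Combo), all below Vehicle. *Clec4d*, its neighbour, was at 144 to 155 CPM in WT and 60.9 to 67.0 in Vehicle, and *Clec4n* was low, at 6.10 to 7.73 CPM in WT and 6.26 to 6.68 in Vehicle, where the groups overlapped. *Clec7a* was at 203, 174 and 185 CPM in WT and at 15.6, 16.3 and 16.8 in Vehicle, the second-largest decrease (log2 fold change -3.53 ± 0.05, SE). *Mgl2* was at 17.9 to 20.7 CPM in WT and 6.06 to 6.86 in Vehicle (-1.55 ± 0.09). *Clec10a* (19.4 to 21.8 against 11.6 to 11.9 CPM) and *Clec4a2* (158 to 180 against 120 to 130 CPM) differed by less than 1 on the log2 scale.

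By size alone, with no call made, 1 member was higher and 4 were lower in Vehicle than in WT by more than 1 on the log2 scale, and in Combo against Vehicle 3 were higher (*Cd209a*, *Clec7a* and *Mgl2*) and 2 lower (*Clec4e* and *Clec4n*). Over all genes 19.5% and 17.7% passed this size together with a Benjamini-Hochberg false discovery rate (FDR) below 0.05. Since the members were chosen on these comparisons, nothing is read from the counts. The difference of *Clec4e* in Combo against Vehicle (-1.01) was under this size without Vehicle replicate 1 (-0.97) or Combo replicate 3 (-0.95). *Mgl2* had its highest BM level in Combo, at 29.8, 29.1 and 27.3 CPM, above every WT library.

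**Figure D2:**
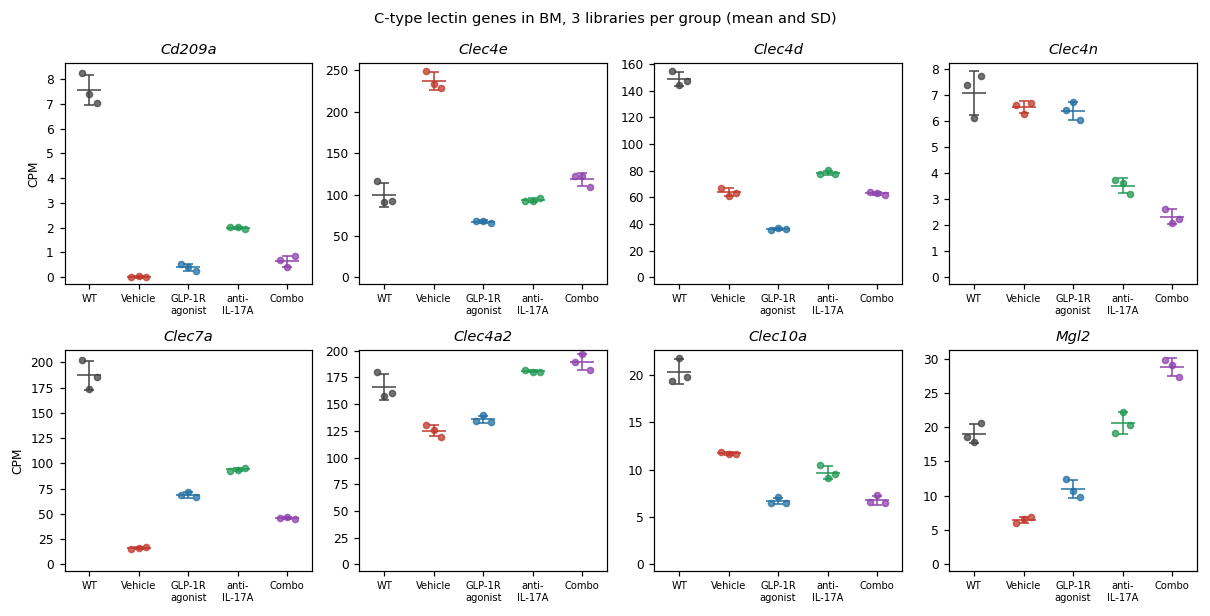
Level (CPM) of the 8 genes in BM, with 1 point per library and the mean and SD of 3 libraries, by group. *Cd209a*, *Clec7a* and *Mgl2* were lowest in Vehicle, and *Clec4e* was highest there (229 to 249.7 CPM).

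The single agents in the BM share the Vehicle libraries with the comparisons above. From here on a gene is said to be called where its FDR over all genes was below 0.05 and its absolute log2 fold change above 1, and *Cd209a*, whose low BM level in Vehicle led to the choice of the members, is left out of the BM counts against Vehicle or WT and of those with Combo. With the GLP-1R agonist, *Clec7a* rose 4.24-fold (log2 fold change 2.08 ± 0.05, adjusted p = 1.4e-29) and *Clec4e* fell by 1.82 ± 0.09 on the log2 scale (adjusted p = 3.76e-09). Thus 2 of the other 7 members were called, against 16.7% of all genes. *Clec4d* (-0.82), *Clec10a* (-0.80) and *Mgl2* (0.76) did not reach the fold-change limit, and *Clec4n* differed by -0.03 (adjusted p = 0.836). With anti-IL-17A, *Clec7a* rose by 2.53 ± 0.05 (adjusted p = 1.21e-32), *Mgl2* rose by 1.67 ± 0.09 (adjusted p = 3.44e-20) and *Clec4e* fell by 1.34 ± 0.09 (adjusted p = 5.01e-08), so that 3 of the other 7 members were called, against 16.1% of all genes. *Clec4n* was lower in every anti-IL-17A library (3.20 to 3.73 CPM) than in Vehicle, by less than the limit (-0.89).

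The treated groups were also set against each other. *Cd209a* was lower with the GLP-1R agonist than with anti-IL-17A (-2.28 ± 0.26, adjusted p = 7.31e-10), and so was *Clec4d*, with 35.5 to 36.8 against 77.3 to 80.1 CPM (-1.12 ± 0.04, adjusted p = 4.15e-25). These were the 2 members called, against 5.83% of all genes, and groups did not overlap for either. Combo had more *Mgl2* (1.39 ± 0.08, adjusted p = 2.18e-19) and less *Clec4n* (-1.46 ± 0.13, adjusted p = 7.91e-13) than the GLP-1R agonist, which makes 2 of the other 7 against 13.2% of all genes. Against anti-IL-17A, Combo had less *Clec7a* (-1.03 ± 0.04, adjusted p = 2.49e-21) which makes 1 of the other 7 against 5.67% of all genes, and its *Cd209a* libraries lay below all those of anti-IL-17A. Combo against WT is made up of the 2 comparisons that led to the choice of the members, so it is given as a description only. By size alone, Combo was below WT by more than 1 on the log2 scale for 4 of the other 7 members. These were *Clec7a* (-2.03 ± 0.04), *Clec4n* (-1.61 ± 0.13), *Clec10a* (-1.58 ± 0.08) and *Clec4d* (-1.25 ± 0.04). Over all genes 14.3% passed this size together with the FDR limit, and nothing is read from the count.

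Beside these values, dendritic cell markers in the BM summed to 1942 to 2111 CPM in WT, 1393 to 1451 in Vehicle, 602 to 637 with the GLP-1R agonist, 808 to 812 with anti-IL-17A and 332 to 340 in Combo. *Cd74* and the MHC class II genes, which B cells also express, made up most of this sum, with 642 CPM of *Cd74* and 267 CPM of *H2-Aa* on average in Vehicle. B cell markers (6 of 6) summed to 1126 to 1142 CPM in WT, 329 to 347 in Vehicle, 107 to 108 with the GLP-1R agonist, 346 to 353 with anti-IL-17A and 108 to 110 in Combo. Monocyte markers (11 of 11) summed to 3855 to 3995 CPM in Vehicle against 1150 to 1859 in the other groups. This sum does not stand for all of them, as 5 of the 11 were higher in Vehicle than in WT (median log2 fold change -0.11). *Cd14* was higher (3.93), whereas *Klf4* (-2.85) and *Cx3cr1* (-2.67) were lower. Interferon-stimulated genes (10 of 10) summed to 5753 to 5795 CPM in Vehicle against 218 to 525 elsewhere. Their part in the lectin values was not tested.

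The ATM comparisons are not those in which *Cd209a* was first noticed. All 8 members differed among the 5 groups at an FDR below 0.05, as did 73.5% of all genes. *Cd209a* was at 20.5, 17.1 and 23.6 CPM in WT (572, 540 and 720 counts) and had no count in any Vehicle library. Against a floor of 3 counts per library it was at least 157.6-fold lower in Vehicle. The adjusted p was 6.54e-09, in a group where 7.53% of all genes had no count either. *Mgl2* fell from 59.6, 67.6 and 69.4 CPM in WT to 2.29, 1.37 and 3.38 in Vehicle (-4.80 ± 0.24, adjusted p = 1.08e-10), and *Clec10a* fell by 1.19 ± 0.10 (adjusted p = 5.49e-08) and *Clec7a* by 1.30 ± 0.14 (adjusted p = 1.33e-06) on the log2 scale.

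*Clec4e* rose from 21.1, 20.8 and 22.7 CPM in WT ATMs to 434, 430.5 and 394 in Vehicle, a 19.5-fold difference (4.28 ± 0.09, adjusted p = 1.62e-15). *Clec4d* rose with it, from 7.46 to 8.62 CPM to 60.7 to 67.4 (3.02 ± 0.10, adjusted p = 6.82e-13). *Clec4n* was at 11.1 to 15.7 against 4.78 to 10.02 CPM (-0.74 ± 0.24, adjusted p = 0.0176, below the fold-change limit), and *Clec4a2* at 18.6 to 19.7 against 18.2 to 20.9 CPM (0.04 ± 0.10, adjusted p = 0.775, 95% interval -0.17 to 0.24). Thus 2 members rose and 4 fell, 6 of 8, against 35.4% of all genes. The median log2 fold change of the 8 was -0.96, against -0.21 over all genes, a shift that exceeds 0.1 here and in the comparisons of the single agents with Vehicle (0.19 and 0.17) and of Combo with WT (-0.12). The summed neutrophil markers went from 462 to 477 CPM in WT to 21890.5 to 23176 in Vehicle in the same libraries, and *Clec4e* and *Clec4d* are also expressed by neutrophils. Their part in the result was not tested.

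**Figure D3:**
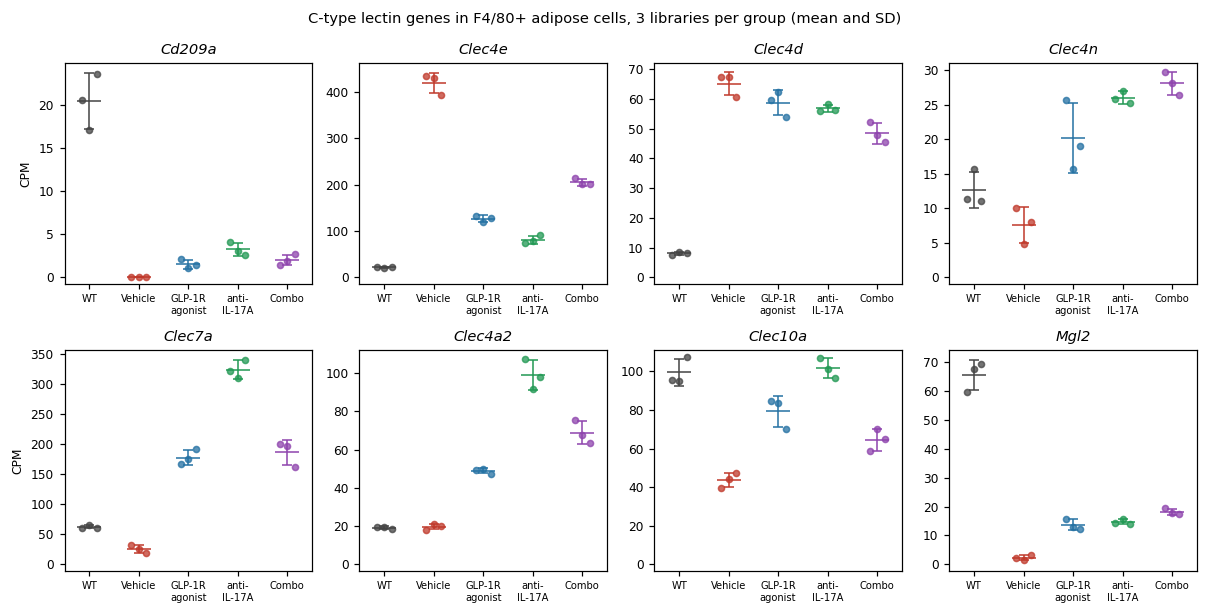
Level (CPM) of the 8 genes in F4/80+ adipose cells, with 1 point per library and the mean and SD of 3 libraries, by group. *Cd209a* was at 0 in all 3 Vehicle libraries and at 1.02 to 4.10 CPM in the treated ones, and *Clec4e* was highest in Vehicle (394 to 434 CPM).

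In all treated ATM groups *Cd209a* was counted in every library. The 3 libraries held 70, 25 and 53 counts with the GLP-1R agonist, 194, 134 and 105 with anti-IL-17A, and 56, 70 and 94 in Combo. Relative to the floor it was at least 11.6-fold higher than in Vehicle with the GLP-1R agonist (adjusted p = 1.02e-06), at least 25.0-fold with anti-IL-17A (adjusted p = 1.53e-07) and at least 15.6-fold in Combo (adjusted p = 5.59e-07). The means were 7.37%, 15.9% and 9.87% of WT, and no treated library overlapped WT or Vehicle.

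*Clec7a*, the β-glucan receptor, had the largest fitted increase with either single agent among the other members. Its levels of 32.1, 25.5 and 18.3 CPM in Vehicle compare with 167, 175 and 192 with the GLP-1R agonist (2.81 ± 0.15, adjusted p = 2.04e-10), 322, 310.3 and 341 with anti-IL-17A (3.68 ± 0.15, adjusted p = 9.04e-12) and 201, 197 and 163 in Combo (2.88 ± 0.15, adjusted p = 1.63e-10). All 9 treated libraries lay above the WT libraries as well (61.0 to 65.6 CPM). *Mgl2* rose to 12.3 to 19.4 CPM over the 3 treatments (2.55 ± 0.23, 2.65 ± 0.23 and 2.96 ± 0.23) but stayed below every WT library. *Clec4n* rose by 1.41 ± 0.24, 1.77 ± 0.25 and 1.88 ± 0.25, and *Clec4a2*, the inhibitory receptor, by 1.31 ± 0.10, 2.33 ± 0.10 and 1.80 ± 0.10.

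*Clec4e* fell under each treatment, to 118 to 133 CPM with the GLP-1R agonist (-1.73 ± 0.08, adjusted p = 2.66e-11), 73.3 to 91.1 with anti-IL-17A (-2.37 ± 0.08, adjusted p = 5.71e-13) and 201 to 214 in Combo (-1.03 ± 0.08, adjusted p = 1.43e-08), always above WT. *Clec4d* was called in none of the 3 comparisons (-0.15, -0.20 and -0.43). *Clec10a* rose past the limit with anti-IL-17A (1.22 ± 0.10, adjusted p = 3.9e-08), and had values of 0.86 and 0.56 with the GLP-1R agonist and in Combo. In all, 5 members rose and 1 fell with the GLP-1R agonist (31.8% of all genes were called), 6 rose and 1 fell with anti-IL-17A (35.5%), and 5 rose and 1 fell in Combo (26.4%). These comparisons share the Vehicle libraries.

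**Figure D4:**
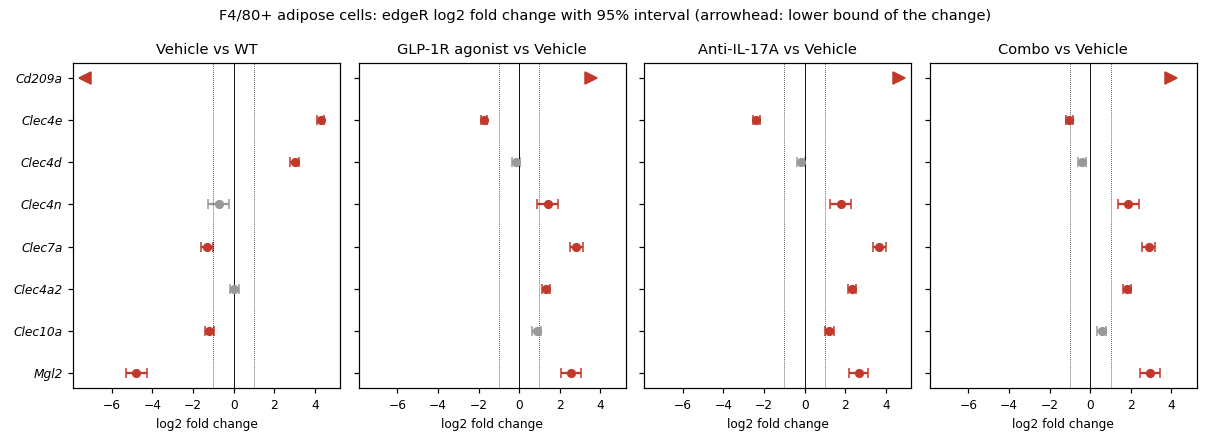
Log2 fold change with 95% interval in F4/80+ adipose cells for Vehicle against WT and each treatment against Vehicle, with called genes in red and others in grey, dotted lines at the fold-change limit of 1 and arrowheads at the lower bound of the change of *Cd209a*. *Clec4e* rose in Vehicle (4.28) and fell with each treatment, and *Mgl2* had the opposite signs.

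Combo differed from WT in ATMs for 7 of 8 members, against 21.6% of all genes. *Clec4e* (3.26 ± 0.08), *Clec4d* (2.59 ± 0.10), *Clec4a2* (1.84 ± 0.10), *Clec7a* (1.58 ± 0.14) and *Clec4n* (1.15 ± 0.24) were higher, and *Cd209a* (-3.34 ± 0.38) and *Mgl2* (-1.84 ± 0.20) were lower, the highest adjusted p being 0.00117 for *Clec4n*. Between treatments fewer members differed. The GLP-1R agonist had less *Clec4a2* than anti-IL-17A (-1.02 ± 0.09, adjusted p = 5.5e-07) and less *Cd209a* (-1.10 ± 0.36, adjusted p = 0.0363), 2 of 8 against 8.1% of all genes. Both calls sit near a limit, since neither held without GLP-1R agonist replicate 3 or without anti-IL-17A replicate 1, and the *Cd209a* call was also lost without replicate 2 of either group and in a fit of these 2 groups alone (adjusted p = 0.0829). Combo had more *Clec4e* than anti-IL-17A (1.35 ± 0.08, adjusted p = 2.5e-09), 1 of 8 against 14.2% of all genes. No member was called between Combo and the GLP-1R agonist, against 18.7% of all genes, by edgeR or DESeq2. There, 4 of 8 members had an unadjusted p under 0.05, and the same number passed the FDR alone, with *Clec7a* differing by 0.07 (95% interval -0.22 to 0.36). The 18.7% is for both limits together, and the share of all genes passing the FDR alone is not given, so nothing is read from the 4.

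On a scale per gene length (RPKM, the CPM divided by the exon length in kilobases), which allows levels of different genes to be compared, the order of the members changed with the group. In WT ATMs *Clec10a* (34.3 ± 2.43 RPKM) and *Mgl2* (31.3 ± 2.48) led and did not differ beyond their spread, and *Clec4e* was last (4.33 ± 0.21). In Vehicle ATMs *Clec4e* led (84.4 ± 4.5), followed by *Clec4d* (40.7 ± 2.40), and *Mgl2* (1.12 ± 0.48) and *Cd209a* (0) were last. With anti-IL-17A *Clec7a* led (123 ± 5.84). In WT BM *Clec4d* (93.1 ± 3.27) and *Clec7a* (71.0 ± 5.55) led, and *Clec4n* (4.97 ± 0.60) and *Cd209a* (4.77 ± 0.39), which did not differ beyond their spread, were last.

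The response to a single agent was compared between the tissues in 1 fit of all 30 libraries as a difference of log2 fold changes, ATM minus BM. No value is given for *Cd209a*, as its Vehicle libraries had at most 2 counts in either tissue. It was among the 5 of 8 members called with the GLP-1R agonist, and its call was lost with DESeq2 (adjusted p = 0.076). Since its low BM level in Vehicle led to the choice of the members, nothing is read from this call. With anti-IL-17A, 5 of 8 members were called, *Cd209a* not among them. With the GLP-1R agonist the difference passed both limits for *Mgl2* (1.78 ± 0.24, adjusted p = 5.56e-07), *Clec10a* (1.66 ± 0.13, adjusted p = 2.88e-11), *Clec4n* (1.43 ± 0.28, adjusted p = 0.000113) and *Clec4a2* (1.19 ± 0.10, adjusted p = 5.17e-11), against 26.6% of all genes. For *Clec4e* the difference was 0.09 ± 0.11 (adjusted p = 0.53). With anti-IL-17A it passed for *Clec4n* (2.64 ± 0.29, adjusted p = 1.18e-08), *Clec4a2* (1.77 ± 0.10, adjusted p = 8.6e-15), *Clec10a* (1.47 ± 0.13, adjusted p = 2.12e-10), *Clec7a* (1.12 ± 0.16, adjusted p = 1.26e-06) and *Clec4e* (-1.06 ± 0.11, adjusted p = 5.83e-09), against 29.3% of all genes. *Clec10a* and *Clec4n* had opposite signs in the tissues with anti-IL-17A, at -0.28 and -0.89 in BM and 1.22 and 1.77 in ATMs.

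**Figure D5:**
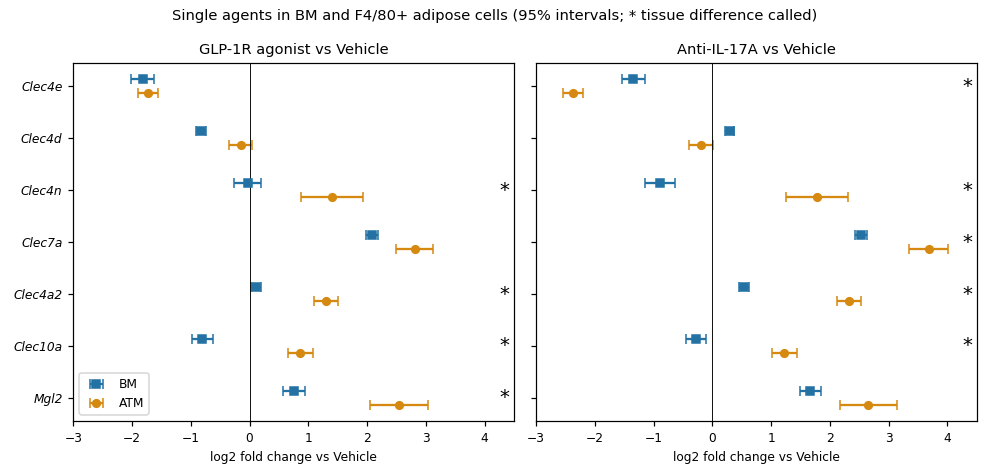
Log2 fold change against Vehicle with 95% interval, from the fit of each tissue, for the 7 genes other than *Cd209a* with each single agent, in BM (squares) and F4/80+ adipose cells (circles). An asterisk marks a tissue difference past both limits in the joint fit, as for *Clec4n* with either agent (1.43 and 2.64).

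Other C-type lectin genes moved in either direction. Of 34 listed, 24 were in the BM table, of which 2 were higher and 8 lower in Vehicle against WT, and 30 were in the ATM table, of which 7 were higher and 10 lower (median log2 fold change -0.58 and -0.66). *Cd209d*, *Clec4b1* and *Cd209f* had the largest changes in BM, with 1.66, 4.78 and 2.08 CPM in WT and 0.0308, 0.378 and 0.173 in Vehicle. In ATMs the relatives *Cd209f* (92.2 ± 3.97 CPM in WT), *Cd209g* (30.5 ± 4.78) and *Cd209b* (4.81 ± 0.34) had no count in any Vehicle library, like *Cd209a*. *Cd209f* was at 11.3 ± 1.45 CPM with the GLP-1R agonist, 4.71 ± 0.32 with anti-IL-17A and 9.19 ± 1.03 in Combo. Against Vehicle, 10, 14 and 12 of the 30 were higher in ATMs and 5, 5 and 4 lower (median 0.61, 1.27 and 0.99), and in BM 8, 7 and 6 of the 24 were higher and 6, 3 and 7 lower. In all, 56.7% of these genes were called in ATMs in Vehicle against WT, against 35.4% of all genes, and 50%, 63.3% and 53.3% with the 3 treatments, against 31.8%, 35.5% and 26.4%. In BM the shares were 41.7% in Vehicle against WT and 58.3%, 41.7% and 54.2% with the treatments, against 19.5%, 16.7%, 16.1% and 17.7% of all genes. The list was made with earlier results of these data known, so nothing is read from these shares.

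Few signaling genes downstream of these receptors were called in BM, except with the GLP-1R agonist, where the share was near that of all genes. Of 34 genes for adaptors, kinases, the Card9 complex and NF-κB, all in both tables, 0 were higher and 1 lower in Vehicle against WT in BM (*Nlrp3*, the inflammasome sensor, 35.1 CPM in WT and 16.5 in Vehicle), and 9 were higher and 2 lower in ATMs (median 0.80). Among those higher in ATMs were the Src-family kinase *Fgr* (2.56 ± 0.18, adjusted p = 6.91e-09) and the inflammasome adaptor *Pycard* (2.24 ± 0.09, adjusted p = 2.66e-12). Against Vehicle, 3, 6 and 5 rose and 4, 5 and 4 fell in ATMs with the GLP-1R agonist, anti-IL-17A and Combo, and 0, 1 and 0 rose and 5, 2 and 2 fell in BM, where *Relb*, an NF-κB subunit, fell with the GLP-1R agonist (-2.19 ± 0.08, adjusted p = 3.17e-26) and with anti-IL-17A (-1.72 ± 0.07, adjusted p = 2.97e-23). The share called in ATMs was 32.4% in Vehicle against WT and 20.6%, 32.4% and 26.5% with the treatments, near or below that of all genes (35.4%, 31.8%, 35.5% and 26.4%), so nothing is read from these counts. In BM it was 2.94% in Vehicle against WT, 8.82% with anti-IL-17A and 5.88% in Combo, below that of all genes (19.5%, 16.1% and 17.7%). With the GLP-1R agonist it was 14.7%, near that of all genes (16.7%).

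Genes for cytokines, chemokines and enzymes that these receptors can induce were listed as outputs (17, of which 13 were in the BM table). The study names *Il1b*, *Tnf*, *Il6* and *Ccl2* of this list as higher in BM of Ob/Ob than of WT recipients. The list was also made with earlier results of these data known, so nothing is read from its shares of called genes. In ATMs 12 were higher and 1 lower in Vehicle against WT (median 2.01), and against Vehicle 0 rose and 6 fell with the GLP-1R agonist, 0 rose and 13 fell with anti-IL-17A, and 0 rose and 10 fell in Combo. These are 76.5% called in Vehicle against WT and 35.3%, 76.5% and 58.8% with the treatments, against 35.4%, 31.8%, 35.5% and 26.4% of all genes, so that the share with the GLP-1R agonist is near that of all genes. *Ccl2*, a chemokine for monocytes, was at 275 CPM in WT ATMs, 3998 in Vehicle (3.86 ± 0.06, adjusted p = 3.45e-17), 237 with anti-IL-17A (-4.08 ± 0.06, adjusted p = 1.41e-17) and 199 in Combo (-4.33 ± 0.06, adjusted p = 2.82e-17). *Nos2*, the inducible nitric oxide synthase, was at 1.72 CPM in WT, 89.8 in Vehicle (5.71 ± 0.40, adjusted p = 6.93e-09) and 2.95 with the GLP-1R agonist (-4.93 ± 0.38, adjusted p = 2.53e-08). In BM 9 of 13 were higher and 4 lower in Vehicle against WT (100% called, against 19.5% of all genes). With the GLP-1R agonist, anti-IL-17A and Combo, 1, 4 and 3 rose and 8, 7 and 8 fell. These are 69.2%, 84.6% and 84.6% called, against 16.7%, 16.1% and 17.7% of all genes. *Ccl2* had a log2 fold change of -6.75 ± 0.11 with the GLP-1R agonist (adjusted p = 2.06e-38).

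Over the 15 libraries of a tissue, which share their groups and so are not independent, the members did not vary as 1 block. In ATMs the log2 CPM of *Cd209a* had a Pearson r of 0.97 with *Mgl2* and 0.89 with *Clec10a*, and of -0.91 with *Clec4e*. In BM it was nearest to *Clec7a* (r = 0.95), with 0.70 for *Mgl2* and -0.59 for *Clec4e*. Among the 13195 BM and 16582 ATM genes that averaged 10 or more counts, the 5 most like *Cd209a* were *Dgkd*, *Vnn3*, *Txndc16*, *Glipr1* and *Clcn4-2* in BM (r = 0.98 for each) and *Fam3c*, *Akr7a5*, *Tppp3*, *Selenbp1* and *Scd2* in ATMs (r = 0.97 to 0.98). No gene was in both lists.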

How the data were processed

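RNA was sequenced from BM and from F4/80+ visceral fat cells, 15 libraries each. The authors deposited raw counts per gene, made with featureCounts 2.0.1 (GENCODE M22, without regard to strand, reads on several genes counted for each) after alignment by STAR 2.7.2a to mm10. Captions of the study's ATM panels name mice as the unit, but the sources used here do not tie each library to 1 mouse, nor do so for BM, so p-values measure the spread between these libraries, which may be technical. The biological coefficient of variation was 3.51% in BM and 32.5% in ATMs.

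Groups were taken from the sample labels. Counts were fitted with edgeR 4.0.16 in R 4.3.3 (TMM scaling, filterByExpr, which removed no gene, and a robust quasi-likelihood model of the 15 libraries of a tissue), with 2-sided tests and Benjamini-Hochberg adjustment over all genes. A gene was called at an FDR below 0.05 and an absolute log2 fold change above 1. Tissue differences came from an interaction in a fit of 30 libraries. Errors are SE for log2 fold changes and SD (n = 3) for levels. CPM used the TMM-scaled library sizes. Where a group had no count, a fold was taken against 3 counts per library. Gene positions and exon lengths are from GENCODE M21 (GRCm38).

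The members and gene lists were chosen with earlier results of these data known. All 8 members are named. Of other listed genes, named ones are among the 3 with the largest change per list and comparison, called, not overlapping between groups and with a mean of at least 10 counts, and marker genes stand where a check of cell type or sex needed them. Alternatives were other size factors, DESeq2 1.42.0, 2 other filters, no fold-change limit, a fit of the compared groups alone, a block and leaving out each library. The block was the replicate number within a tissue, and group and number for the tissue difference. Of the 2 filters, the one that kept all genes repeats the main fit, since filterByExpr removed no gene. The edgeR and DESeq2 fits were tested on simulated data.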

Additional observations from a re-analysis of the deposited data

Results flagged for a closer look

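With the GLP-1R agonist the change against Vehicle differed between the tissues, tested as an interaction in edgeR, for *Clec4n* (ATM minus BM 1.43 on the log2 scale), *Clec4a2* (1.19), *Clec10a* (1.66) and *Mgl2* (1.78). With anti-IL-17A it differed for *Clec4e* (-1.06), *Clec4n* (2.64), *Clec7a* (1.12), *Clec4a2* (1.77) and *Clec10a* (1.47). Dixon's test for a single outlying library needs at least 4 libraries in a group and was not run.

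In other comparisons the 3 libraries of each group did not overlap and the change had opposite signs in the tissues, and here the difference between tissues was not tested. Groups did not overlap for 69% to 75.8% of all BM genes and 47.8% to 62.9% of all ATM genes in these comparisons. The share of all genes with opposite signs is not given, so the values below are descriptions and nothing is read from their number. In Vehicle against WT, *Clec4d* was lower in BM (-1.22) and higher in ATMs (3.02), 4.24 apart. In Combo against WT, *Clec4d* was 3.83 apart (-1.25 in BM, 2.59 in ATMs), *Clec7a* 3.61 apart (-2.03 and 1.58), *Clec4n* 2.75 apart (-1.61 and 1.15) and *Mgl2* -2.44 apart (0.59 and -1.84). In Combo against Vehicle, *Clec4n* was 3.37 apart (-1.49 and 1.88) and *Clec10a* 1.36 apart (-0.79 and 0.56). In Combo against the GLP-1R agonist, *Clec4n* was 1.94 apart (-1.46 and 0.48) and *Clec4d* -1.08 apart (0.80 and -0.28). Between the GLP-1R agonist and anti-IL-17A, *Clec4e* was 1.12 apart (-0.48 in BM, 0.64 in ATMs). In ATMs the neutrophil markers were at 22629 CPM in Vehicle and 13003 in Combo against 251 to 470 in the other groups, and their part in these differences was not tested.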

How the results depend on the processing

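These counts are over all 8 members, *Cd209a* included, although its BM level in Vehicle led to the choice of the members. They show only how the number called depends on the settings, and nothing is read from them about the members. The share of all genes that passed the FDR alone is not given, so counts without the fold-change limit have no background here. Without the fold-change limit the number of called members rose in BM from 3 to 7 (GLP-1R agonist against Vehicle), from 4 to 8 (anti-IL-17A against Vehicle), from 5 to 8 (Combo against WT), from 2 to 8 (GLP-1R agonist against anti-IL-17A), from 2 to 6 (Combo against the GLP-1R agonist) and from 2 to 7 (Combo against anti-IL-17A), and in ATMs from 2 to 5, from 0 to 4 and from 1 to 4 in the last 3 of these comparisons. With at least 10 counts in every library, which removes *Cd209a*, 1 member was called for the GLP-1R agonist against anti-IL-17A in BM and in ATMs, and 1 for Combo against anti-IL-17A in BM. With only the groups compared, 1 was called for the GLP-1R agonist against anti-IL-17A in ATMs, and leaving out 1 library gave 0 to 2 there. Leaving out 1 library gave 4 to 5 for the tissue difference with the GLP-1R agonist and 4 to 6 with anti-IL-17A.

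Among the member values, signs turned for 5 that were near 0 and not called. *Clec10a* in BM, Combo against the GLP-1R agonist, was at -0.015 with at least 10 counts in every library and at -0.049 to 0.054 without single libraries. *Clec4d* was at -0.070 to 0.015 in BM, Combo against Vehicle, without single libraries, and at -0.0051 and -0.0059 in ATMs, GLP-1R agonist against anti-IL-17A, with the size factors of DESeq2 in edgeR and with DESeq2. *Clec4n* was at -0.068 to 0.011 in BM, GLP-1R agonist against Vehicle, and *Clec4a2* at -0.0071 to 0.082 in ATMs, Vehicle against WT, without single libraries.

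No pair with the same replicate number had a correlation of deviations as high as 0.1 (r -0.03 to 0.05 in BM and -0.02 to 0.03 in ATMs). Of 15 libraries, 10 in BM and 5 in ATMs were closest to one of their own number, where 5 would be if the number carried nothing, which in BM is a hint from the data and not from the design. With the replicate number as a block in the fit of each tissue, the count of called members did not change. For the tissue difference the block instead paired the BM and ATM libraries of the same group and number. The labels used here do not give such a pairing, and the deviations of these pairs had r of -0.03 to 0.03. With this block the count changed from 5 to 6 for the tissue difference with anti-IL-17A, where *Mgl2* passed the limit (1.01). *Cd209a* with 0 to 2 counts in Vehicle limits any fold of that gene.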
